A study of Mus musculus with 2 samples.

Results

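The clustered protocadherin genes lie in 3 arrays, alpha, beta and gamma, on mouse chromosome 18. The members described here were the CpG cytosines in the interval of chromosome 18 that spans the arrays (GRCm38 positions, the first and last at 18:36920315-37847104), listed at the same base and strand in both libraries, each with 10 or more reads. There were 2754 of them among 3030488 such cytosines of the autosomes and X, with 688 in the alpha array, 317 in the beta array, 1467 in the gamma array and 282 outside the arrays. An array was taken from 1000 bp before its first gene start to its last annotated gene end, and genes were those whose symbol starts with Pcdha (14 genes), Pcdhb (22) or Pcdhg (22). The measurements came from reduced representation bisulfite sequencing (RRBS), in which MspI fragments are bisulfite-converted and a cytosine without a methyl group appears as T. There were 2 libraries of mouse peripheral blood cells, 1 labelled wild type (WT) and 1 labelled I-PpoI, after a homing endonuclease that cuts both DNA strands and is expressed, by the series title, in kidney proximal tubular epithelium. The labelled site of expression is thus a kidney cell type, which is not the tissue measured. The sources used here do not give the promoter that drives it, the strain, age and sex of the mice, any treatment, or whether a library came from 1 animal or several. Y chromosome reads made up 0.486% of the WT reads and 0.238% of the I-PpoI reads, and whether this reflects sex was not tested. The comparison is of blood DNA methylation between these libraries.

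Protocadherins are cadherin-like adhesion proteins of the cell surface. Each alpha and gamma gene has its own promoter and its own large variable exon, which is spliced to constant exons shared by the whole array, whereas each beta gene is a separate gene with a single large exon. In neurons every cell switches on a different small set of these promoters, a choice in which promoter DNA methylation, the DNA-binding protein CTCF and the cohesin complex take part, while the C-type genes at the ends of the alpha and gamma arrays are used more regularly.

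The WT library had 191405 reads over cytosines in the interval and the I-PpoI library 146710, with a median of 40 and 34 reads per listed cytosine. Each group had 1 library, so no difference below has a replicate check, and every Fisher's exact test compares the reads of 2 libraries, not the conditions. Intervals are 95% intervals that cover counting error only. In bulk blood, a different level within a cell type and a different mix of cell types cannot be told apart. Among blood cell markers, 3 of 11 neutrophil, 5 of 10 T cell and 6 of 8 B cell gene starts were measured, with WT levels of 25.4 to 67.5%, 4.50 to 79.4% and 1.79 to 88.0%. Of these, Cebpe (67.5% in WT, 45.9% in I-PpoI) and Cd5 (79.4% and 69.1%) were called lower and none was called higher. Over all gene starts 2.8% were called lower and 0.333% higher, and of those between 20 and 80% in WT 13.9% were called lower. The other measured neutrophil starts were not called. Ngp differed the other way, by 16.8 points (66.9% in WT, 83.7% in I-PpoI). Ltf, on 4 cytosines, differed by 5.01 points with reads pooled (-6.07 to 15.7) and by -3.69 points with each cytosine weighted equally. The neutrophil list thus had no common direction. Their part in the results was not tested.

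Partly methylated cytosines made up a larger share of the clusters than of all measured cytosines. Of the cytosines in the interval, 44.6% had a WT level between 20 and 80%, against 12.1% of all shared cytosines. The gamma array had the largest such share, 51.9%, followed by the beta array with 44.8% and the alpha array with 40.6%. The mean WT level was 44.3% in the alpha array, 72.2% in the beta array and 51.4% in the gamma array. The alpha array held the most cytosines under 20%, 36.0% of its own, and the beta array the fewest, 6.31%.

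Starts of the alternate genes, the promoter-choice genes, lay in the middle of the scale, and those of 3 of the 5 C-type genes were nearly unmethylated. A gene start here is the region within 1000 bp of the annotated start, measured where it held at least 3 shared cytosines. This was met by 37 of 58 genes, 9 alpha, 7 beta and 21 gamma. The other 21 were 5 alpha, 15 beta and 1 gamma gene (Pcdhga7), of which 19 held no shared cytosine there and 2 held 1 or 2. Of the 32 alternate gene starts, 27 had a WT level between 20 and 80%, with a median of 47.7% in WT and 46.3% in I-PpoI. Over all 22551 gene starts the WT median was 6.84%, and 11.1% of them lay between 20 and 80%.

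**Figure D1:**
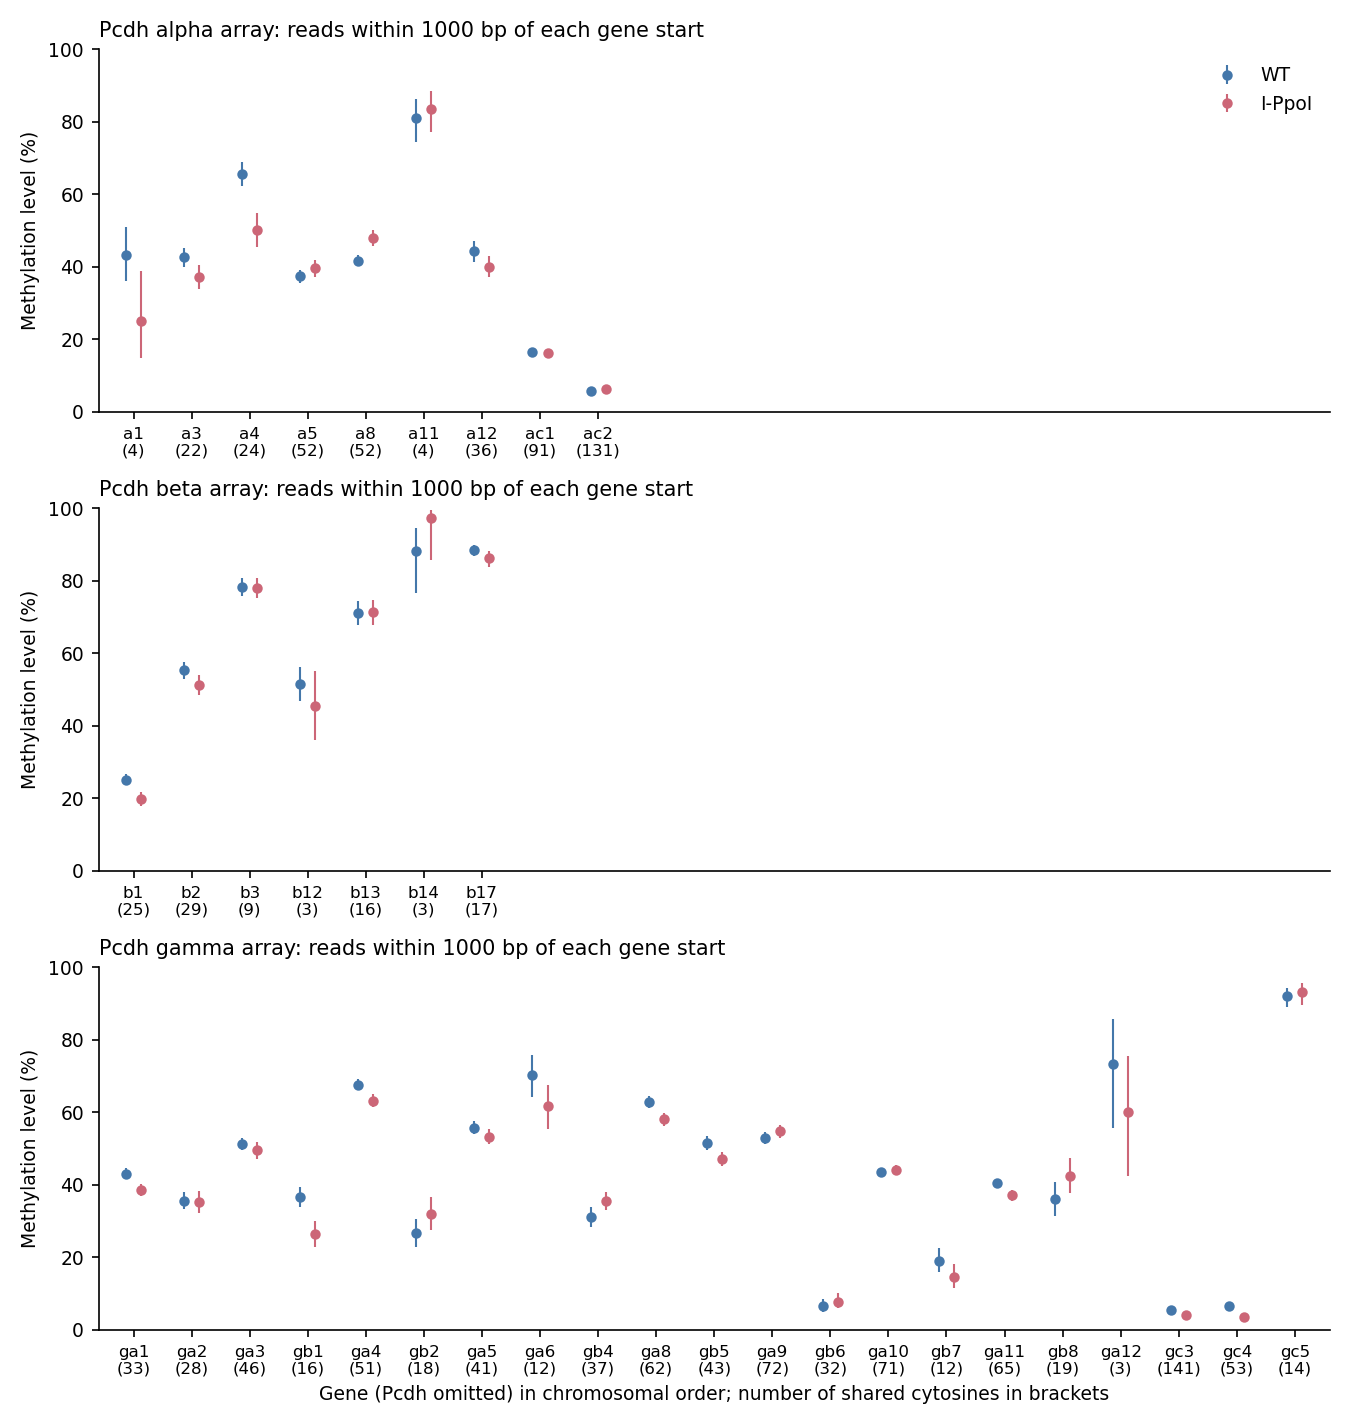
Methylation level (percent of reads, y axis) within 1000 bp of each measured gene start in the alpha, beta and gamma arrays, in chromosomal order, for the WT (blue) and I-PpoI (red) library with 95% Wilson intervals. Most alternate genes lie between 20 and 80% in both libraries, and Pcdhac2, Pcdhgc3 and Pcdhgc4 lie under 7%.

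The 5 C-type gene starts spanned the whole scale. Pcdhgc3 was at 5.50% in WT (5.11 to 5.91) and 4.197% in I-PpoI (3.85 to 4.58), over 141 cytosines. Pcdhac2 was at 5.69% (5.20 to 6.21) and 6.38% (5.83 to 6.97), over 131 cytosines. Pcdhgc4 was at 6.63% and 3.57%. These 3 starts were low in both libraries and did not overlap with any alternate start other than Pcdhgb6 in level. Pcdhac1 lay higher, at 16.4% and 16.1%. Pcdhgc5, the last gene of the gamma array, was at 92.0% (89.1 to 94.1) in WT and 93.1% (89.5 to 95.5) in I-PpoI, the highest level of the 37 starts in WT. The C-type genes were thus not alike in blood, with 4 of 5 under 20% and 1 over 80% in WT.

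In the alpha array the alternate starts ranged from 37.4 to 81.1% in WT. Pcdha11 had the highest level, 81.1% in WT and 83.5% in I-PpoI, although on 4 cytosines with 164 reads in each library. Pcdha4 followed with 65.7% and 50.2%. Pcdha12 was at 44.3% and 40.04%, Pcdha3 at 42.6% and 37.1%, and Pcdha5 lowest with 37.4% and 39.6%. Apart from Pcdha11 and Pcdha4, the alternate alpha starts lay between 37.4 and 44.3% in WT. Pcdha1 belonged to that group in WT with 43.4%, but had only 48 reads in I-PpoI.

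Beta gene starts were more methylated than those of the other arrays, with a median of 71.2% in WT and 71.4% in I-PpoI over 7 genes. Their cytosines lay farther from the start, 39 at 0 to 499 bp (WT mean 44.5%) and 51 at 500 to 999 bp (84.5%). The alpha array had 227 (28.3%) and 150 (27.6%), and the gamma array 512 (33.6%) and 306 (50.9%). The part of position in the contrast of arrays was not tested. Pcdhb17 had 88.5% in WT and 86.2% in I-PpoI, Pcdhb3 at 78.3% and 78.1%, and Pcdhb13 at 71.2% and 71.4%. Pcdhb1, the first gene of the array, was the lowest with 25.2% (23.7 to 26.8) and 19.8% (17.95 to 21.9). Its cytosines were unlike each other, from 0 to 100% with a median of 17.5% in WT. Pcdhb2 stood between them at 55.3% and 51.3%.

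The gamma array alternates A and B genes, which are 2 sequence subfamilies, and their starts differed in level. The 11 measured A starts had a WT median of 52.9%, and all lay between 35.6 and 73.3%. The 7 B starts had a WT median of 31.1% and ranged from 6.48 to 51.6%. In each of 6 pairs in which a B gene follows an A gene and both were measured, the B start had the lower WT level. In I-PpoI this held in 5 of the 6, the exception being Pcdhgb8, a transcribed pseudogene, at 42.5% after Pcdhga11 at 37.1%. The widest pair was Pcdhga9, at 52.9% in WT and 54.7% in I-PpoI, before Pcdhgb6, at 6.48% (4.83 to 8.65) and 7.78% (5.93 to 10.1). Every one of the 32 cytosines at the Pcdhgb6 start was under 20% in WT, with a maximum of 18.8%. Among A genes Pcdhga6 was highest in WT of those with at least 100 reads, at 70.3% and 61.6%, followed by Pcdhga4 at 67.6% and 63.1%.

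The order of the gene starts was nearly the same in both libraries. Levels of the 37 starts in WT and I-PpoI correlated with r = 0.971, a description over genes that share both libraries. Neighbours in the WT order were often not separable: the Wilson intervals overlapped in 31 of 36 neighbouring pairs. Starts with more measured cytosines tended to be less methylated (Spearman rho = -0.484 over 37 starts, -0.269 over the 32 alternate starts).

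In alternate genes levels were higher farther into the variable exon than at the start, while C-type genes showed no steady rise. In alternate genes the cytosines 0 to 499 bp after the start averaged 39.6% in WT and 37.2% in I-PpoI. Those at 500 to 999 bp averaged 62.6% and 62.4%, and those at 1000 to 1499 bp 76.2% and 72.7%. C-type cytosines averaged 15.9% and 15.5% at 0 to 499 bp, over 5 genes. They were lower at 500 to 999 bp, with 7.95% and 9.24% over 4 genes. At 1000 to 1499 bp they averaged 24.3% and 20.1%, but over only 2 genes. From 1001 to 3000 bp after the start the C-type genes were unlike each other. Pcdhgc3 averaged 17.2% and 10.8% there, Pcdhac2 30.3% and 28.9%, Pcdhac1 46.1% and 46.6%, and Pcdhgc5 86.5% and 83.7%. Few cytosines before the start were measured, 44 in alternate genes and 58 in C-type genes within 500 bp, so that the start regions are mainly the 5' part of the exon. Pcdhgb6, low at its start, had a mean of 69.2% in WT and 71.0% in I-PpoI over 36 cytosines 1001 to 3000 bp after its start.

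**Figure D2:**
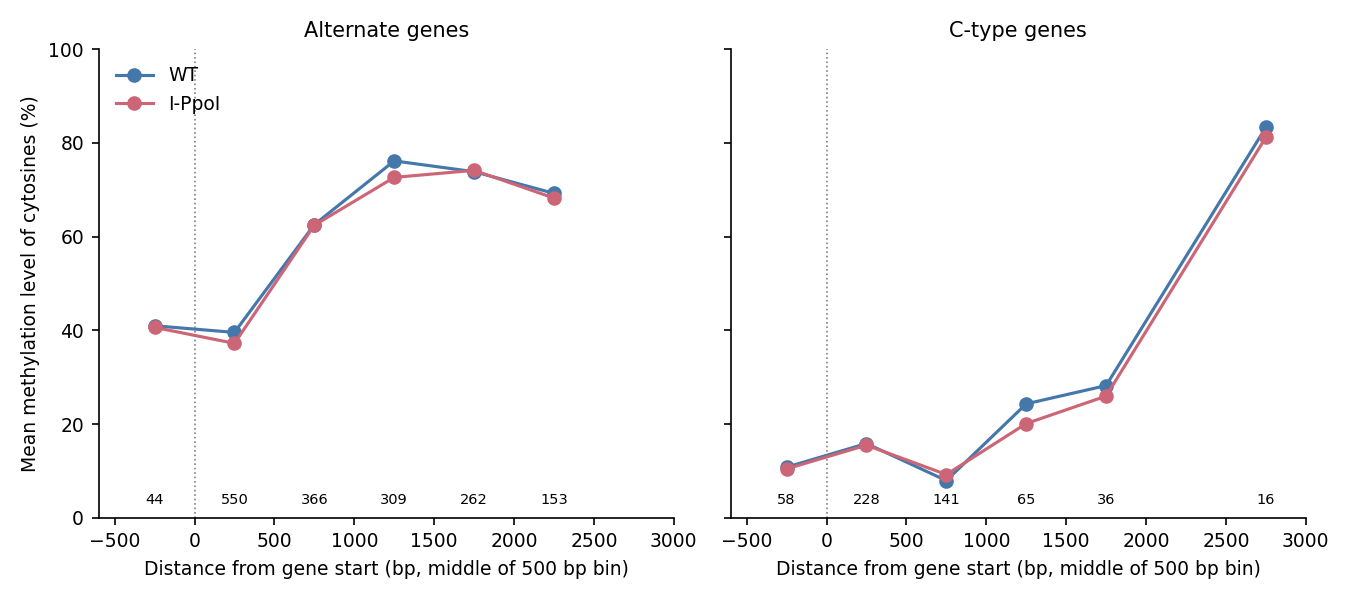
Mean methylation level of cytosines (percent, y axis) in 500 bp bins by distance from the gene start (bp, x axis) in alternate and C-type genes, for WT (blue) and I-PpoI (red). Numbers along the bottom are cytosines per bin, and bins with under 15 are not drawn. Both libraries follow the same course, from 39.6% in WT at alternate starts to 76.2% at 1000 to 1499 bp.

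The I-PpoI library was slightly below WT in the gamma array, and in the alpha and beta arrays the counting interval of the difference included 0, when each cytosine was weighted equally. The mean difference, I-PpoI minus WT, was -2.01 percentage points in gamma (-2.53 to -1.49), 0.243 in alpha (-0.456 to 0.942) and 0.578 in beta (-0.466 to 1.62). Over all shared cytosines it was -1.49 points. Alpha exceeded gamma by 2.25 points (1.38 to 3.12) and beta exceeded gamma by 2.59 (1.42 to 3.75), while alpha and beta differed by -0.335 (-1.59 to 0.922). Cytosines are not replicates, so these differences were not tested. Pooling reads in place of averaging cytosines changed the picture, with -3.84 points in alpha, 1.80 in beta and -4.38 in gamma. Over all shared cytosines the pooled difference was -6.30 points, farther below 0 than in any array. Coverage differed with level. The median ratio of I-PpoI to WT reads was 0.91 at interval cytosines under 20% and 0.72 at those of 80% or more.

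Within the gamma array, the difference from 0 was larger over the A genes than over the B genes. The segments of the A genes, each running from 1000 bp before a start to the next, averaged 59.3% in WT and 56.4% in I-PpoI, which is -2.97 points (-3.73 to -2.20) over 691 cytosines. Those of the B genes had 58.3% and 58.0%, -0.332 points (-1.36 to 0.698) over 472 cytosines. C-type genes of both arrays differed by -0.689 points (-1.30 to -0.0754). With reads pooled the differences were -3.04 points for A, -1.67 for B and -3.36 for C-type genes, so that the C-type genes then lay farthest below 0. All shared cytosines gave -6.30 points with reads pooled. Of the A starts 9 of 11 were below 0, of the B starts 3 of 7, where 75.7% of all gene starts were below 0. The contrast between A and B was not tested.

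The signed mean difference of partly methylated cytosines was nearer to 0 in the interval than over all shared cytosines, while single differences were about as widely spread. At a mean level of 40 to 60% the difference was -2.84 points (-4.01 to -1.67) over 409 interval cytosines and -6.88 points (-6.96 to -6.80) over all shared cytosines. At 60 to 80% it was -1.99 points (-3.02 to -0.955) and -7.17 points (-7.23 to -7.11). At 20 to 40% the values were -1.49 and -4.01 points. The SD of the differences in these classes, from the lowest level up, was 16.3, 19.9 and 19.6 points in the interval and 15.9, 21.5 and 20.4 over all shared cytosines. The counting intervals did not overlap in these 3 classes, but partly methylated regions elsewhere were also sparser. In windows of 20 to 80% the median number of cytosines was 22 in the interval and 6 over all windows. The part of this in the difference was not tested.

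**Figure D3:**
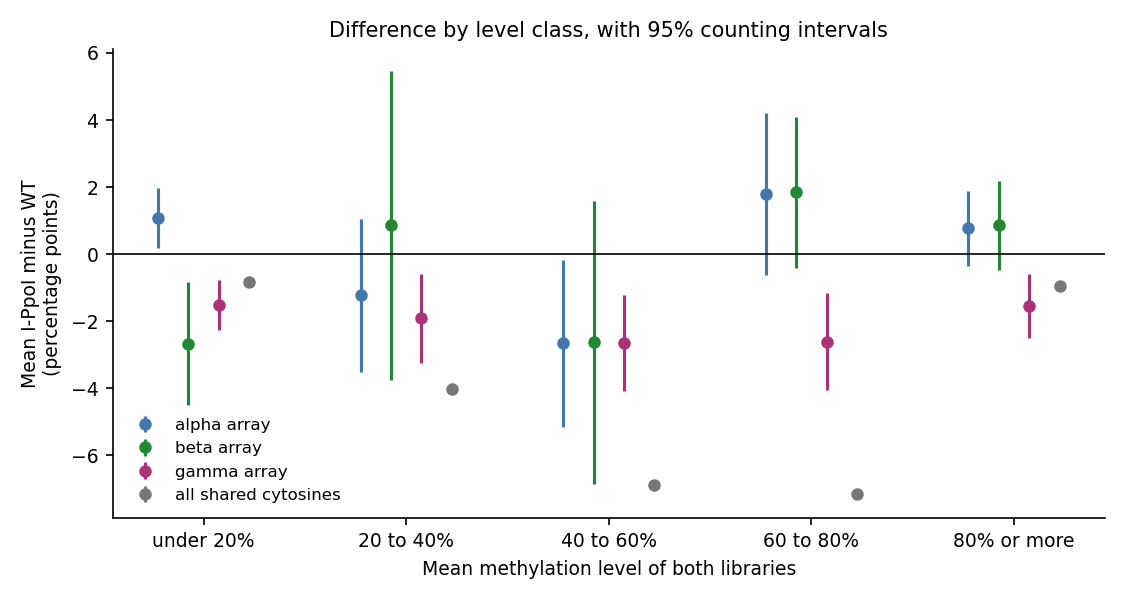
Mean I-PpoI minus WT difference (percentage points, y axis) of cytosines by class of mean methylation level (x axis) in the alpha, beta and gamma arrays and over all shared cytosines, with 95% intervals for counting error. At 60 to 80% all shared cytosines stand at -7.17 points, below the intervals of each array.

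Strands gave a measure of spread within a library. At CpGs with both strands listed and each between 20 and 80%, the forward and reverse cytosine differed by 12.2 points on average in WT and 13.4 in I-PpoI over 407 CpGs of the interval. The 2 libraries differed by 13.5 points at the forward and 13.2 at the reverse cytosines of the same CpGs. Over all 83112 such CpGs of the genome the values were alike, 12.6 and 13.5 points between strands and 13.8 between libraries on either strand. Asking that each strand lie between 20 and 80% limits the strand gap. At the 553 CpGs of the interval with a mean level of 20 to 80% the strands were 18.3 and 19.7 points apart and the libraries 12.6 and 12.5. Over the 213385 such CpGs of the genome the strands were 40.8 and 42.4 points apart and the libraries 9.82 and 9.83. Interval and genome were thus alike only where each strand was asked to lie between 20 and 80%. The signed library difference over the 407 CpGs was -2.19 points, against -5.14 points over the genome.

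A gene start was called where Fisher's exact test gave an adjusted p under 0.01 and the levels were 10 or more points apart. Of the 37 starts 2 were called lower in I-PpoI and 0 higher, where over all gene starts 2.8% were called lower, 0.333% higher and 3.14% either way, and of those between 20 and 80% in WT 13.9% were called lower. Members in that range had 2 calls among 27. The median difference of the 37 was -2.32 points, against -0.681 over all gene starts. For starts of 20 to 80% it was -4.01 points in members and -4.03 points over all 2499 such starts. Pcdha4 fell from 65.7% (62.3 to 68.9) to 50.2% (45.6 to 54.9), by 15.4 points (adjusted p = 1.6e-06 by Fisher's exact test), with a counting interval of -21.1 to -9.70 and with 16 of 24 cytosines lower and 7 higher. Its coverage was uneven, 804 reads in WT and 438 in I-PpoI. Pcdhgb1 fell from 36.5% (33.8 to 39.4) to 26.4% (22.9 to 30.1), by 10.2 points (adjusted p = 0.00018 by Fisher's exact test), with a counting interval of -14.6 to -5.51 and with 12 of 16 cytosines lower. Its reads numbered 1128 and 573. Neither was called by a test scaled for the spread between cytosines (adjusted p of 0.056 and 0.059) or on forward-strand cytosines alone (-10.1 and -4.32 points), while reverse-strand cytosines alone gave a lower call at both (-18.7 and -14.3 points). With a coverage minimum of 30 reads the Pcdha4 difference was 0.00 points, with reads thinned to equal depth -10.05 points, and neither was called. Within 2000 bp of its start Pcdhgb1 differed by -2.19 points.

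**Figure D4:**
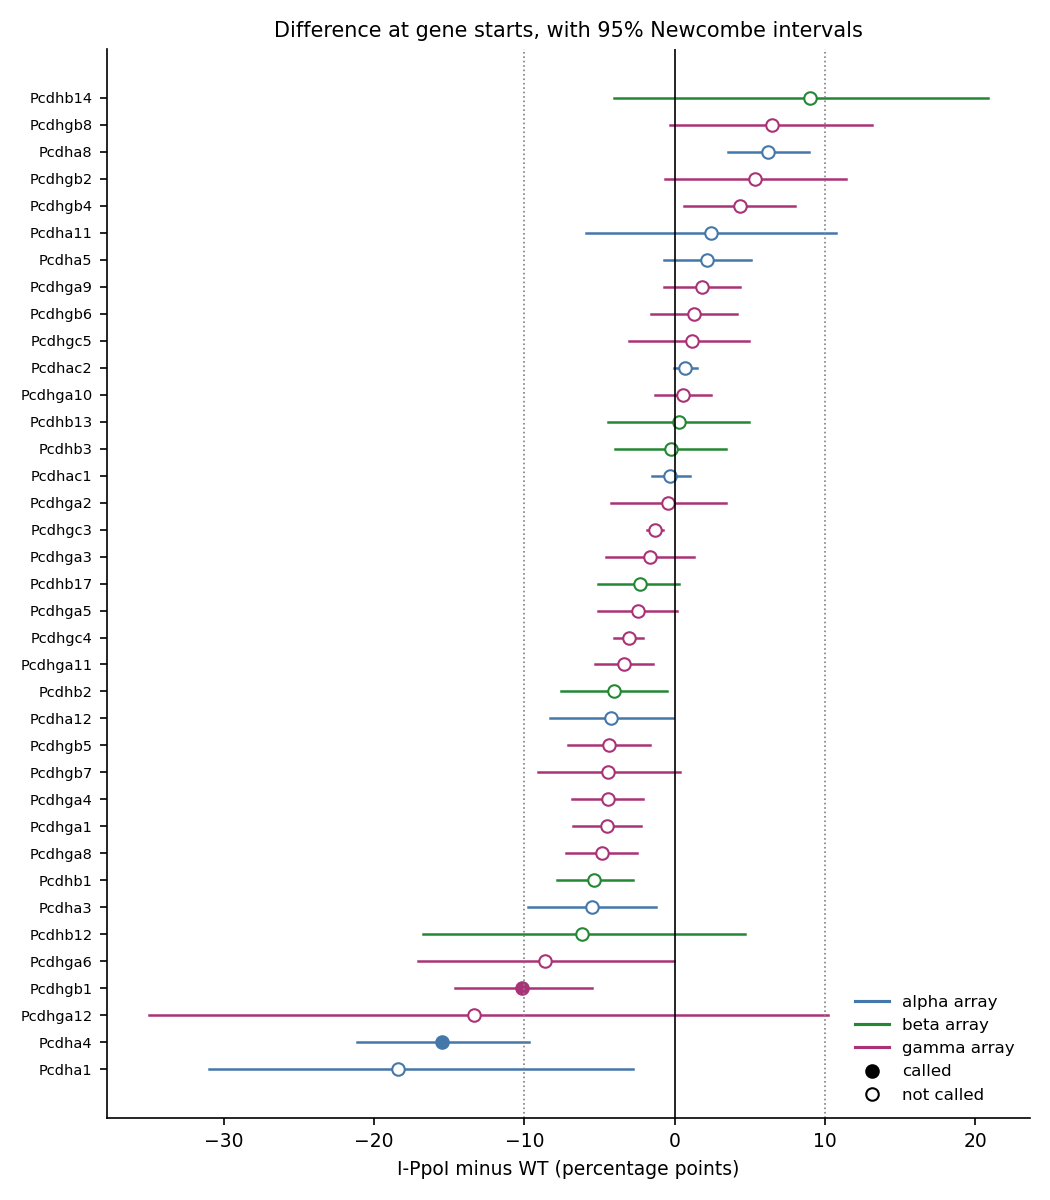
I-PpoI minus WT difference (percentage points, x axis) at the 37 measured gene starts (y axis), coloured by array, with 95% Newcombe intervals. Filled points, Pcdha4 and Pcdhgb1, were called, and 33 of the 37 starts lie within 10 points of 0.

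Pcdha8 stood out in the other direction. Its start had 41.7% in WT and 48.0% in I-PpoI, 6.23 points higher (adjusted p = 5.6e-05 by Fisher's exact test), with an interval of 3.51 to 8.94, which is under the 10 points asked. Of its 52 cytosines 41 were higher and 10 lower in I-PpoI. With each cytosine weighted equally the difference was 10.4 points, and with reads thinned to equal depth 10.1 points, and it was called higher in both. On the forward and reverse strand alone it was 4.51 and 8.52 points, and neither was called. The scaled test gave an adjusted p of 3.0e-04. Reads were again uneven, with 3782 in WT and 1954 in I-PpoI. Elsewhere among starts with at least 100 reads, the largest positive differences were 6.49 points at Pcdhgb8 (-0.281 to 13.2), 5.34 at Pcdhgb2 (-0.632 to 11.4) and 4.36 at Pcdhgb4 (0.650 to 8.02). Other negative ones were -8.66 points at Pcdhga6 (-17.0 to -0.0743), -5.52 at Pcdha3, -5.34 at Pcdhb1 and -4.85 at Pcdhga8. Of the 4 starts with fewer than 100 reads in a library, Pcdha1, Pcdhb12, Pcdhb14 and Pcdhga12, none was called. An adjusted p under 0.01 regardless of size was found at 11 of 37 starts, 10 of them below 0, and at 5990 of all 22551 starts, 5659 of them below 0, which is a like share. Among the 11 were the C-type starts of Pcdhgc3 (-1.30 points) and Pcdhgc4 (-3.06 points).

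Windows of 1000 bp on a fixed grid gave no call in the clusters. Of 127 windows with at least 3 cytosines, 0 met an adjusted p under 0.01 and 25 points by Fisher's exact test, against 1.08% of all windows (1663 lower, or 1%, and 0.0742% higher). Of the 66 between 20 and 80% by the mean of both libraries 0 were called, against 4.9%. An unadjusted p under 0.05 was found for 51 of the 127 windows (40.2%, against 34.8% of all windows), and the scaled test also called 0 at 25 points. Regardless of size, the scaled test gave an adjusted p under 0.01 at 6 of the 127 windows, among them both windows described below. Over all 165854 windows it did so at 4348. Differences ranged from -22.1 to 18.5 points, and both extremes lay away from gene starts. They were chosen after their values were seen. The window at 18:37285001-37286000, between Pcdhb1 and Pcdhb2, had 57.2% in WT and 75.7% in I-PpoI, 18.5 points apart (15.2 to 21.6), with 30 of 37 cytosines higher. Without cytosines over 3000 bp from a start, which include this window, the beta mean was -0.894 points. The window at 18:37842001-37843000, just past the annotated end of the gamma array, was at 77.7% and 55.6%, a difference of -22.1 points (-25.6 to -18.6), with 26 of 28 cytosines lower.

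Single cytosines were called in both directions. Of 2754, 16 were called lower and 10 higher, 0.944% in all, against 0.485% over all shared cytosines (0.429% lower and 0.0561% higher). Higher calls made up 38.5% of those in the interval and 11.6% of those overall. Among cytosines with a mean level of 20 to 80% the interval had 1.75% called (22 of 1258), against 3.27%. Of the 26 calls, 15 lay in start regions, 8 farther along, up to 3000 bp after a start, 2 farther away and 1 outside the arrays. The 23 near starts belonged to 17 genes, and 4 of these genes had calls both ways.

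**Figure D5:**
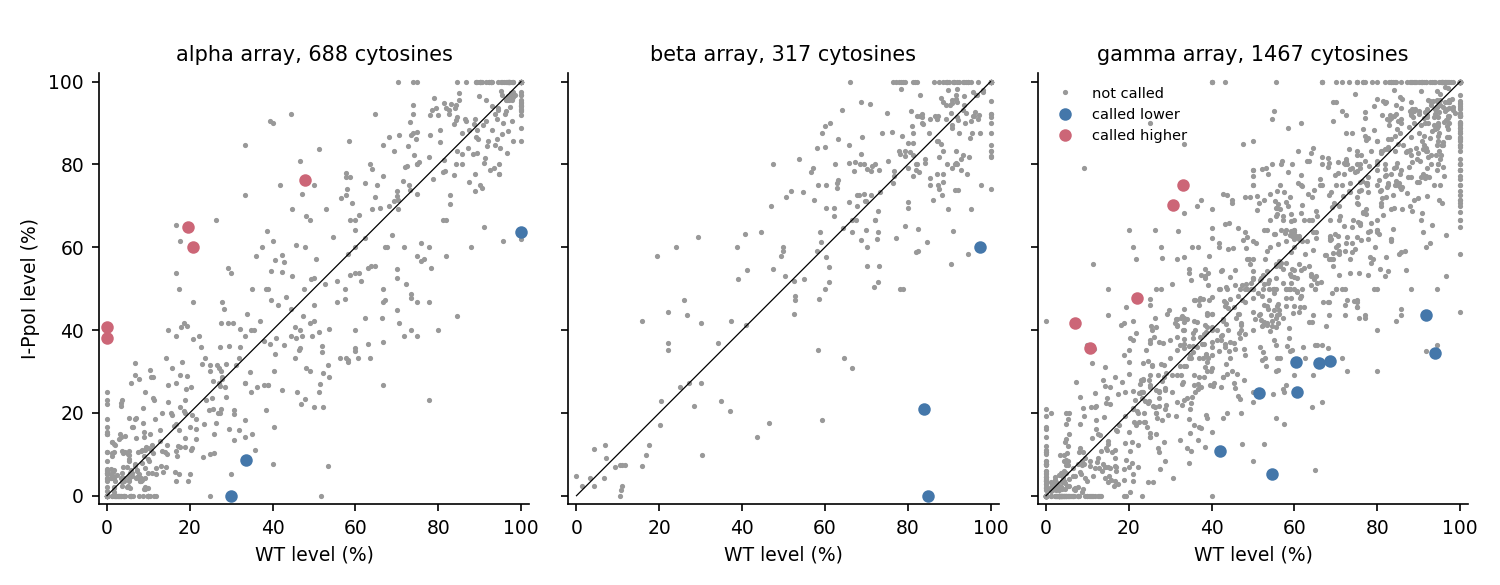
Methylation level of each shared cytosine in the WT (x axis, percent) and I-PpoI (y axis, percent) library in the alpha, beta and gamma arrays. Grey points were not called, blue were called lower and red called higher in I-PpoI, and the line marks equal levels. The alpha array has 3 lower and 5 higher calls, the beta array 3 lower and 0 higher, and the gamma array 9 lower and 5 higher.

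Called cytosines were mostly isolated, and few partners on the other strand differed by as much. Of 23 with a listed partner, 13 partners differed in the same direction and 10 in the other, 5 by at least 10 points in the same direction and 0 by at least 25. At 1 CpG of Pcdha8 both strands were called in opposite directions. The forward cytosine at 18:36993024 rose from 0% to 40.8% and the reverse cytosine at 18:36993025 fell from 29.9% to 0%. In Pcdhga10 the forward cytosine at 18:37747785 fell from 93.9% to 34.5%, while its partner was at 56.8% and 56.1%. In Pcdhga11 calls stood close together and opposed, a fall from 60.5% to 25% at 18:37755815 and a rise from 10.5% to 35.7% at 18:37755878. Pcdhga1 had 2 falls, from 66.0% to 32.0% at 18:37662187 and from 51.4% to 24.8% at 18:37662219. The partner of the former was also lower, at 58.2% and 36.2%. The largest difference, at 18:37388101 after Pcdhb8, was from 85.0% to 0% with only 10 reads in I-PpoI.

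Genes that act on the clusters were almost unmethylated at their starts. Neither they nor related or neighbouring genes gave a call, where 3.14% of all gene starts were called either way. Of 24 regulators, 18 were measured, with WT levels of 1.84 to 8.93% and 0 called in either direction. CTCF, which anchors loops between these promoters and their enhancers, had a gene start (Ctcf) at 3.39% in WT and 2.82% in I-PpoI. Pds5a, of the cohesin complex, was at 4.12% and 3.68%, and Smchd1, which encodes a chromatin protein that acts on these clusters, at 3.60% and 3.24%. Rest, encoding a repressor of neuronal genes, was at 4.66% and 3.94%. Of 22 other protocadherin, Fat, Dachsous and Celsr family genes outside the clusters 19 were measured, with a WT median of 8.02% and 0 calls. Celsr1 and Celsr2, of planar cell polarity, were at 5.62% and 4.54% and at 5.59% and 4.86%, and Pcdh1 and Pcdh8 at 5.96% and 5.21% and at 11.0% and 9.86%. A start under 10% in WT cannot be called lower by this rule, so for all 18 measured regulators the lack of lower calls was fixed in advance. The same held for most measured starts among the other protocadherin family genes and the neighbouring genes, with WT medians of 8.02% and 5.94%. Of 9 neighbouring genes of the region 8 were measured and 0 called, among them Taf7, a transcription initiation factor gene between the beta and gamma arrays, at 4.88% and 4.72%. Also low were Diaph1, encoding an actin nucleator beside the gamma array, at 4.11% and 3.23%, Fchsd1 at 6.59% and 6.39%, and Rell2 at 5.19% and 4.37%.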

How the data were processed

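The kit was Zymo-Seq RRBS, per the labels' protocols, and methylKit is the tool that the submitters' processing notes name. For the aligner, genome build, trimming and duplicate removal the sources used here give nothing. The deposited coverage is a count of reads at a CpG cytosine, strands apart, and C and T calls are deposited as percent of it, per the file headers. Percent times coverage was whole within 1e-06, which gave methylated reads. Cytosines above the 99.9th percentile of coverage (284 reads in WT, 252 in I-PpoI) were left out genome-wide, which left 3026647, and none of the interval was lost. Reads were summed over 1000 bp windows and gene starts with at least 3 cytosines and tested between libraries (Fisher's exact test, two-sided), with p-values adjusted by Benjamini-Hochberg over all 165854 windows, 22551 gene starts or 3026647 cytosines. Calls needed an adjusted p under 0.01 and 25 points, or 10 points at gene starts. Sums treat cytosines on 1 read as independent, so intervals are too narrow. Wilson intervals belong to levels, Newcombe intervals to differences.

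Gene symbols came from a RefSeq table of GRCm38.p6. Strands came from RefSeq promoters where listed (26851 of 49550 genes, with the members taken as running towards higher coordinates), and otherwise the gene end with more cytosines was used. With starts shifted by 5000 to 100000 bp, the mean WT level of gene starts with known strand was 65.9 to 67.3%, in place of 20.3%. Named were called starts and windows, C-type genes, and in each array the 3 starts highest and lowest in WT and the 3 largest differences each way with 100 reads per library, and up to 4 genes of each comparison list. Members, lists and rules were chosen with earlier results of these data known. Other names were chosen after their values were seen. Tests were checked on simulated data. Python 3.11.15, NumPy 2.4.6 and pandas 2.3.3 were used. Alternatives changed coverage, strand, depth, thresholds, weights, test and region size.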

Additional observations from a re-analysis of the deposited data

How the results depend on the processing

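No paired analysis was possible because each group had 1 library, and none could be left out. The gamma mean difference stayed below 0 under all alternatives run. It was moved beyond its interval only by pooled reads (-4.38 points). The alpha mean moved to -3.84 points with pooled reads, 1.11 within 1000 bp of a gene start, -0.812 on the forward and 1.37 on the reverse strand. The beta mean moved to 1.80 with pooled reads, -1.92 within 1000 bp of a start, -0.894 without cytosines over 3000 bp from a start (an alternative added after the data were seen), 1.81 at a coverage minimum of 30, 2.28 on the forward and -1.20 on the reverse strand. Called windows, 0 in the main analysis, numbered 8 at a minimum of 10 points, 2 by a fold rule of 1.5, 2 with 500 bp windows, 2 with the grid moved by 500 bp, 1 at a coverage minimum of 20 and 2 on the reverse strand. Called gene starts, 2 in the main analysis, numbered 0 by the scaled test, 0 at 25 points, 0 at a coverage minimum of 30, 1 (higher) on the forward and 4 on the reverse strand, and 1 (Pcdha8, higher) with thinned reads. A like number did not always mean the same starts. At a coverage minimum of 20 there were 1 lower and 1 higher call, and within 500 bp 2 lower calls. Pcdha4 was called in neither, and Pcdhb2 was called lower within 500 bp (-12.0 points). Called cytosines, 26 in the main analysis, numbered 61 at an adjusted p under 0.05, 12 on the forward strand, 14 on the reverse strand and 9 with thinned reads. Strand subsets and thinning have fewer cytosines or reads. The cause of the other changes was not tested. Across these alternatives 17 of 37 gene starts never changed sign. No 2 member starts lay within 2000 bp, so counting a cytosine for the nearest start alone changed nothing. Coverage limits the data most in the beta array, where 15 of 22 starts were not measured.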

Other observations

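Mean levels of cytosines more than 3000 bp from a gene start differed between the arrays, but the beta and gamma means rested partly on single stretches. In the alpha array the 120 cytosines more than 3000 bp after a start had a mean of 84.8% in WT and 85.0% in I-PpoI. The 59 such cytosines of the beta array averaged 71.1% and 78.1%, with 50.8% of them between 20 and 80% in WT. Of these 59, 37 lay in a single stretch between Pcdhb1 and Pcdhb2, at 18:37285362-37285765, with means of 61.8% and 75.8%. In the gamma array 37 cytosines averaged 73.4% and 71.3%, among them the low ones after Pcdhgc5 given below. After Pcdhac2, a stretch at 18:37172356-37172605 was low in both libraries, at 21.3% and 18.6% over 7 cytosines. After Pcdhgc5, 7 cytosines at 18:37824570-37825045 had a mean of 29.6% and 26.5%, and 2 at 18:37835602-37835657 were at 0% and 7.14%. These stretches were chosen after their values were seen.

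The start of Pcdhac1 held a stretch that differed from the rest. From 500 bp before the start up to it, 39 cytosines were at 8.30% in WT and 7.49% in I-PpoI. From 500 to 999 bp after it, 10 cytosines were at 30.7% and 52.0%, a difference of 21.3 points (9.85 to 32.1) on 166 and 123 reads. A window of 500 bp at 18:37090501-37091000 was called higher, from 31.0% to 58.4% (adjusted p = 1.8e-09 by Fisher's exact test), and with 500 bp windows Pcdhgb1 was called lower at 18:37680501-37681000, from 52.8% to 25% over 5 cytosines. Neither was called in 1000 bp windows of the main grid.

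In the interval 506 cytosines were listed in WT alone, with a mean level of 62.0% and a median of 14 reads, and 219 in I-PpoI alone, with a mean level of 57.1% and a median of 12 reads.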
